A study of Glycine max with 12 samples.

Results

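Of 39811 genes listed for soybean (Glycine max) leaves, 39 were expressed mainly in old leaves. A gene counted as a member when it had an FPKM (fragments mapped to a gene, scaled by the gene's length and by the fragment total of the library) of at least 5 in each of the 6 old-leaf libraries. In addition, its lowest old-leaf FPKM had to exceed 4 times its highest FPKM in the 6 young-leaf libraries. The first condition alone was met by 12152 genes, so the second kept few of them. With the leaf ages exchanged, the same rule gave 231 genes. The levels in old and young leaves chose the members and are therefore described without a test. The rule treats both manganese (Mn) levels alike, so the response to Mn within a leaf age was tested. It uses the lowest old-leaf and the highest young-leaf value, however, so genes with a large Mn response meet it less easily. All genes were not picked that way, so shares over all genes are given for reference and are not a like background.

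Groups were old leaves at 100 µM Mn, old leaves at 5 µM Mn, young leaves at 100 µM Mn and young leaves at 5 µM Mn, with 3 libraries each. All plants grew in nutrient solution, with the Mn levels applied as MnSO4 from the start of the fifth leaf stage, and 5 µM was the normal supply. Which leaf positions "old" and "young" stand for, the cultivar, the length of treatment and the number of plants behind a library are details not given in the sources used here. The extraction text speaks of nodules although each sample is labelled as leaf. The IDs are not paired with gene names in the deposited table or in the reference table used, so the tissue could not be checked against leaf or nodule markers and no function is given for any member.

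Mn is an essential micronutrient of leaves. It forms the water-splitting cluster of photosystem II and serves as cofactor of several enzymes, including a mitochondrial superoxide dismutase. It moves poorly out of leaves in the phloem, so that it builds up in older leaves, where brown spots are a usual sign of excess. Young leaves import sugar and nitrogen while they expand, whereas mature leaves export sugar and later break down and export their protein.

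Libraries held 18540551 to 20189064 fragments in old leaves at 100 µM, 17774122 to 20526701 in old leaves at 5 µM, 19608302 to 20826335 in young leaves at 100 µM and 18198700 to 21070730 in young leaves at 5 µM. For a gene 1 kb long, a single fragment was worth an FPKM of 0.0475 to 0.0563. The widest scatter between replicates was in old leaves at 5 µM, with a median SD of 0.266 on the log2(FPKM + 1) scale over the 28267 genes tested, against 0.136 to 0.142 elsewhere. Nothing in the labels says that replicates came from separate plants, so p-values measure the spread between these libraries, which may in part be technical. In such bulk samples fewer cells of a type and less RNA per cell cannot be told apart.

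Members spanned a wide range of levels in old leaves. Their mean FPKM over the 6 old-leaf libraries ran from 9.68 to 1172 with a median of 28.1, while the means over the 6 young-leaf libraries ran from 0.0385 to 172 with a median of 1.22. In old leaves 9 members averaged at least 100, 15 lay between 20 and 100 and 15 lay below 20. In young leaves 27 members stayed under an FPKM of 5 in every library, and 9 of these stayed under 1.

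The most abundant member was Glyma.06G177600.Wm82.a2.v1. It had an FPKM of 1313, 1303 and 860 in old leaves at 100 µM and 1211, 1439 and 908 in old leaves at 5 µM. In young leaves it stood at 165, 183 and 171 at 100 µM and at 174, 131 and 205 at 5 µM. It was thus far from silent in young leaves, and in each leaf age the Mn levels overlapped. Its log2 change with Mn was -0.04 in old leaves (SE 0.32, adjusted p = 0.964 by limma) and 0.05 in young leaves (SE 0.16, adjusted p = 0.804). The old-leaf change was 0.17 without replicate 3 at 100 µM and 0.12 without replicate 2 at 5 µM.

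Next came Glyma.14G195000.Wm82.a2.v1, with an FPKM of 656, 692 and 713 in old leaves at 100 µM and 853, 823 and 696 at 5 µM. Its young-leaf values were 0.305, 1.96 and 0.199 at 100 µM and 1.79, 4.09 and 10.5 at 5 µM. The ratio of old-leaf to young-leaf means was therefore 835 at 100 µM and 145 at 5 µM. Together these most abundant 2 members held 48% of the summed mean FPKM of the 39.

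The widest gaps between leaf ages were at lower levels. Glyma.19G008700.Wm82.a2.v1 had 93.2, 46 and 55.9 in old leaves at 100 µM and 23.2, 65.6 and 16.1 at 5 µM, and its highest young-leaf FPKM was 0.197, so that the lowest old-leaf value was 81.8 times the highest young-leaf one. Its young-leaf values rested on 2 to 6 fragments per library. For Glyma.10G291000.Wm82.a2.v1 this ratio was 65. It ranged from 7.25 to 17.7 in old leaves, and no young-leaf library had more than 2 fragments of it. At such counts the size of the gap is known only roughly.

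Over all 39 members the ratio of the lowest old-leaf to the highest young-leaf value had a median of 6.73. Nearest to the limit inside were Glyma.08G328000.Wm82.a2.v1 at 4.005 and Glyma.06G177600.Wm82.a2.v1 at 4.2, and nearest outside were Glyma.03G223600.Wm82.a2.v1 at 3.972 and Glyma.19G217700.Wm82.a2.v1 at 3.924. The ratio of old-leaf to young-leaf group means had a median of 25.4 at 100 µM and 17.8 at 5 µM. Its range was 5.11 to 835 at 100 µM and 6.44 to 468 at 5 µM.

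**Figure D1:**
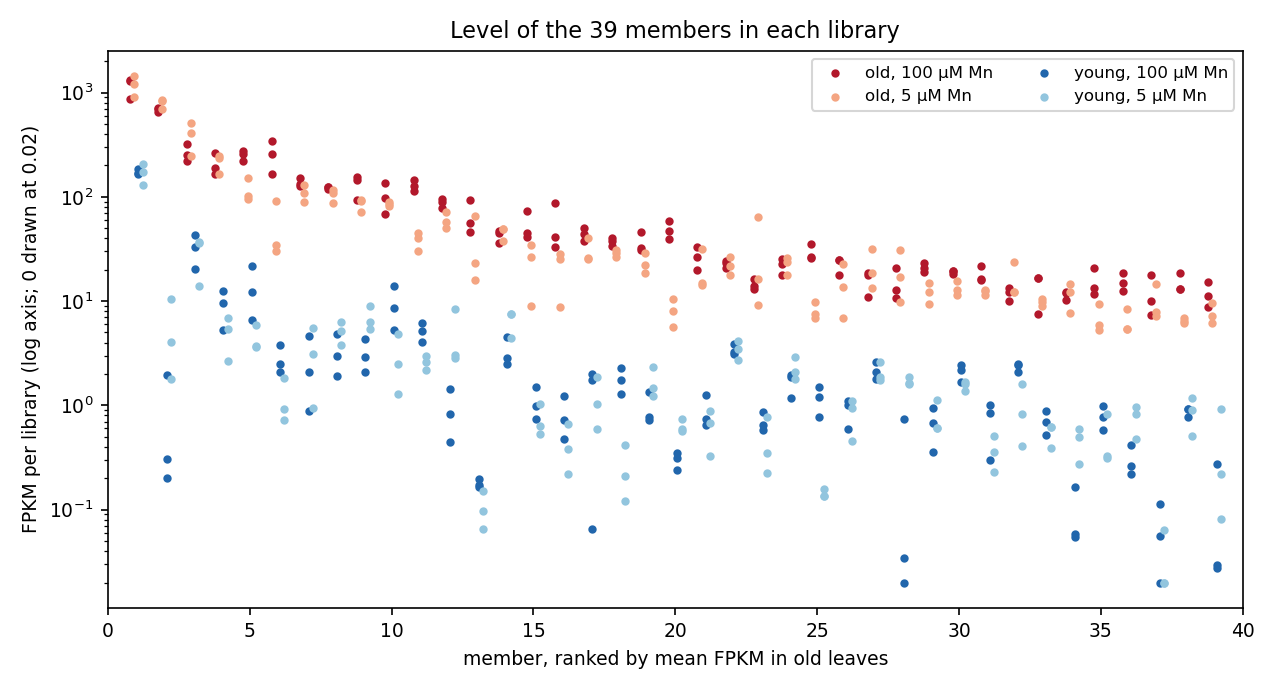
FPKM of each member (x axis, ranked by mean FPKM in old leaves) in each of the 12 libraries (points, log axis), coloured by leaf age and Mn level; a value of 0 is drawn at 0.02. The old-leaf points of every member lie above its young-leaf points, as the rule requires, and member 1 has young-leaf values of 131 to 205.

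As a group the members took a small part of the measured RNA. Their share of the summed FPKM was 0.757, 0.763 and 0.691% in old leaves at 100 µM and 0.674, 0.723 and 0.543% in old leaves at 5 µM. In young leaves the share was 0.0431, 0.0512 and 0.0476% at 100 µM and 0.0408, 0.0392 and 0.0552% at 5 µM. The Mn levels overlapped in both leaf ages. Without the most abundant member the old-leaf libraries no longer overlapped, with 0.529 to 0.54% at 100 µM and 0.386 to 0.471% at 5 µM. These shares have no p because the members were chosen from the same values.

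Within old leaves the median member had an FPKM of 37.6, 32 and 33.6 in the 100 µM libraries and 17.2, 26.3 and 21.8 in the 5 µM libraries, without overlap. In young leaves it had 0.775, 1.51 and 1.19 at 100 µM and 0.939, 1.11 and 1.13 at 5 µM, where the levels overlapped. Replicates of the members also scattered. Their median coefficient of variation was 19.7% in old leaves at 100 µM and 23.1% at 5 µM, while the 12152 genes with an old-leaf FPKM of at least 5 throughout had 9.46% and 19.8%. In young leaves, where members had a median of 34 fragments per library at 100 µM and 36 at 5 µM, it was 35.4% at 100 µM and 38.7% at 5 µM.

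In old leaves 7 members rose and 0 fell at high Mn by limma on the 6 old-leaf libraries (adjusted p below 0.05). Over all 28267 genes tested, 3.67% were called, 1.82% higher and 1.85% lower. Among the 12152 genes that also met the level condition the shares were 1.37% higher and 1.88% lower. At an unadjusted p below 0.05, 18 members were higher and 0 lower, against 22.7% of all genes in either direction. Voom on the recovered fragments called 7 members higher and 0 lower, beside 526 higher and 552 lower of all genes. The 7 log2 changes ran from 1.06 to 2.46, and the other 32 members had values from -0.55 to 1.35. For 17 of the 39 members all 3 values at 100 µM exceeded all 3 values at 5 µM, against 20.3% of all genes tested. The reverse held for 0 members, against 9.06% of all genes. The change was above 0 in 29 members and in 61.3% of all genes, and the median log2 change was 0.49 for members and 0.09 for all genes.

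The strongest rise in old leaves was that of Glyma.03G036500.Wm82.a2.v1. It had 39, 47.4 and 58.2 in old leaves at 100 µM and 5.7, 8.01 and 10.5 at 5 µM, and the log2 change was 2.46 with an SE of 0.24 (adjusted p = 0.0091 by limma). Second was Glyma.15G041100.Wm82.a2.v1, with 164, 260 and 342 at 100 µM and 90.4, 30.4 and 34.8 at 5 µM, which gave a log2 change of 2.39 with an SE of 0.47 (adjusted p = 0.0478). The Mn levels did not overlap in either gene, although replicate 1 at 5 µM of Glyma.15G041100.Wm82.a2.v1 lay well above the other replicates of its group. The call of that gene held in 1 of 6 leave-one-out fits, with adjusted p of up to 0.19 in the others. It was lost after median-of-ratios rescaling (0.0594), with a pseudocount of 0.1 (0.0522) and without the filter (0.107).

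Calls in old leaves depended on single libraries. The count of 7 fell to 0 when replicate 2 or replicate 3 at 100 µM was left out, and 46 and 44 genes of all tested were then called. Leaving out replicate 1 of that group gave 3 (330 of all genes), and so did leaving out replicate 2 at 5 µM (288 of all genes). The count was 4 after rescaling by median-of-ratios factors, which called 403 higher and 664 lower of all genes beside 514 and 524 as deposited. It was 3 without the filter on low values (227 of all genes) and 12 when all 12 libraries shared 1 variance (4551 of all genes). No member was lower in any of these fits.

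**Figure D2:**
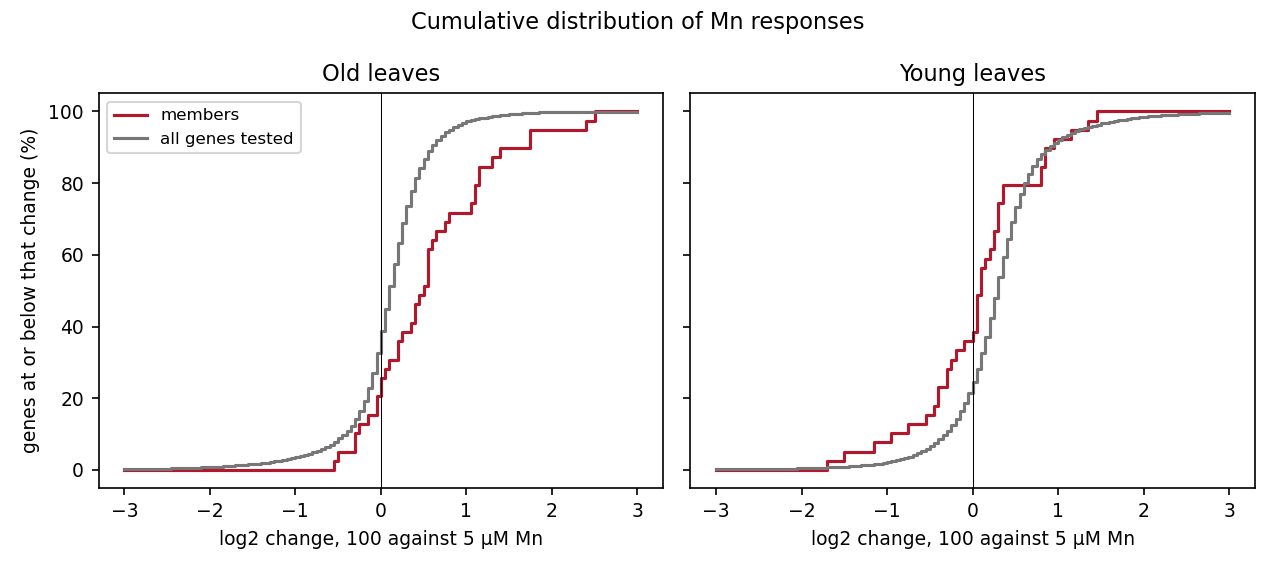
Cumulative share of genes (y axis, %) at or below a given log2 change at 100 against 5 µM Mn (x axis), for the 39 members and the 28267 genes tested, in old leaves (left panel) and young leaves (right panel). The member curve lies to the right of all genes in old leaves (medians 0.49 and 0.09) and mostly to the left of them in young leaves (medians 0.05 and 0.27).

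In young leaves 15 members were called for Mn, 7 higher and 8 lower at 100 µM. Over all genes tested 48.1% were called there, 39.9% higher and 8.25% lower. Among genes that met the level condition 41.7% were higher and 9.97% lower. At an unadjusted p below 0.05, 7 members were higher and 9 lower, against 56.9% of all genes in either direction. The called rises had log2 changes of 0.76 to 1.43 and the called falls -1.71 to -0.33, and the 24 members without a call had -0.56 to 0.76. All 3 values at 100 µM exceeded all 3 values at 5 µM for 9 members, against 50.6% of genes tested, and lay below them for 6 members, against 10.7%. The change was above 0 in 24 members and in 75.5% of all genes, and the median log2 change was 0.05 for members and 0.27 for all genes.

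Most members were low in young leaves, so the calls were also counted by level. Among the 18 members with a mean young-leaf FPKM under 1, 5 were called, against 38.3% of the 1733 genes tested at that level. Among the 16 members from 1 to under 5, 8 were called, against 44.6% of genes. Of the remaining 5 members 2 were called, against 51.8%. The voom method, which uses fragments and adds only part of a fragment to each count, called 7 members higher and 7 lower, beside 11261 and 2383 of all genes. Its median log2 change was 0.13 for members and 0.34 for all genes. The count was 15 with a pseudocount of 0.1 (13497 of all genes) and 14 with a pseudocount of 5 (13589 of all genes). Every member met the filter on low values through its old-leaf levels alone. Other genes with a mean young-leaf FPKM under 1 could also pass through the young-leaf libraries of 1 Mn level. The 38.3% is therefore not a like background. When only genes averaging an FPKM of 5 or more were tested, 7 members rose and 5 fell among the 38 left. Of the 15650 genes in that fit 6759 rose and 1633 fell. The falls lost included Glyma.15G274200.Wm82.a2.v1 (adjusted p = 0.203 by limma), whose young-leaf values rested on 1 to 11 fragments.

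The strongest rise in young leaves was that of Glyma.05G128400.Wm82.a2.v1, with 5.32, 8.66 and 14 at 100 µM and 2.51, 1.29 and 4.84 at 5 µM. Its log2 change was 1.43 (SE 0.41, adjusted p = 0.0248 by limma). In old leaves the same gene had 68.2, 136 and 97.5 at 100 µM and 89.7, 84.7 and 82.4 at 5 µM, where the levels overlapped (adjusted p = 0.731). Its young-leaf call was lost when replicate 2 or 3 at 100 µM or replicate 1 or 2 at 5 µM was left out, at adjusted p-values of up to 0.068, and after median-of-ratios rescaling (0.077). Glyma.16G219700.Wm82.a2.v1, named here after its values were seen, had 1.29, 2.3 and 1.76 at 100 µM and 0.208, 0.42 and 0.12 at 5 µM, and the log2 change was 1.15 with an SE of 0.17 (adjusted p = 0.0023). It kept its call without any single young-leaf library. The 5 µM values of this gene came from 2 to 7 fragments.

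The strongest fall in young leaves among members whose Mn levels did not overlap was that of Glyma.01G231800.Wm82.a2.v1. It had 0.82, 1.42 and 0.447 at 100 µM and 2.84, 3.06 and 8.47 at 5 µM, which gave a log2 change of -1.51 with an SE of 0.36 (adjusted p = 0.0141 by limma). Glyma.03G231200.Wm82.a2.v1 had 0.0345, 0.747 and 0 at 100 µM and 1.6, 1.64 and 1.89 at 5 µM, and its log2 change was -1.15 (SE 0.22, adjusted p = 0.00597). Both falls kept their call without any single young-leaf library. The old-leaf values of Glyma.03G231200.Wm82.a2.v1 overlapped, with 12.9, 10.8 and 20.6 at 100 µM and 17.2, 31 and 9.7 at 5 µM. The abundant Glyma.14G195000.Wm82.a2.v1, whose young-leaf values are given above, had a log2 change of -1.71 in young leaves (SE 0.55, adjusted p = 0.0371). Its Mn levels overlapped, since replicate 2 at 100 µM had 1.96 and replicate 1 at 5 µM 1.79, and its call was lost without replicate 1 or 3 at 100 µM or replicate 2 or 3 at 5 µM, at up to 0.099.

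Rescaling moved the median log2 change more in young leaves than in old ones, where that of members went from 0.49 to 0.38. Of the called members, 3 of 7 lost their call in old leaves and 5 of 15 in young leaves. Median-of-ratios rescaling moved the median log2 change of all genes in young leaves to -0.01 and that of members to -0.14, so that 2 members were called higher and 10 lower, beside 4498 and 5185 of all genes. The 2 rises that stayed were those of Glyma.12G233600.Wm82.a2.v1 and Glyma.16G219700.Wm82.a2.v1, and all 8 falls stayed. The count of 15 was 8 when replicate 3 at 100 µM was left out and 7 when replicate 3 at 5 µM was, beside 11003 and 9911 of all genes against 13599 with every library. In every leave-one-out fit 3 of the 7 rises and 3 of the 8 falls kept their call.

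**Figure D3:**
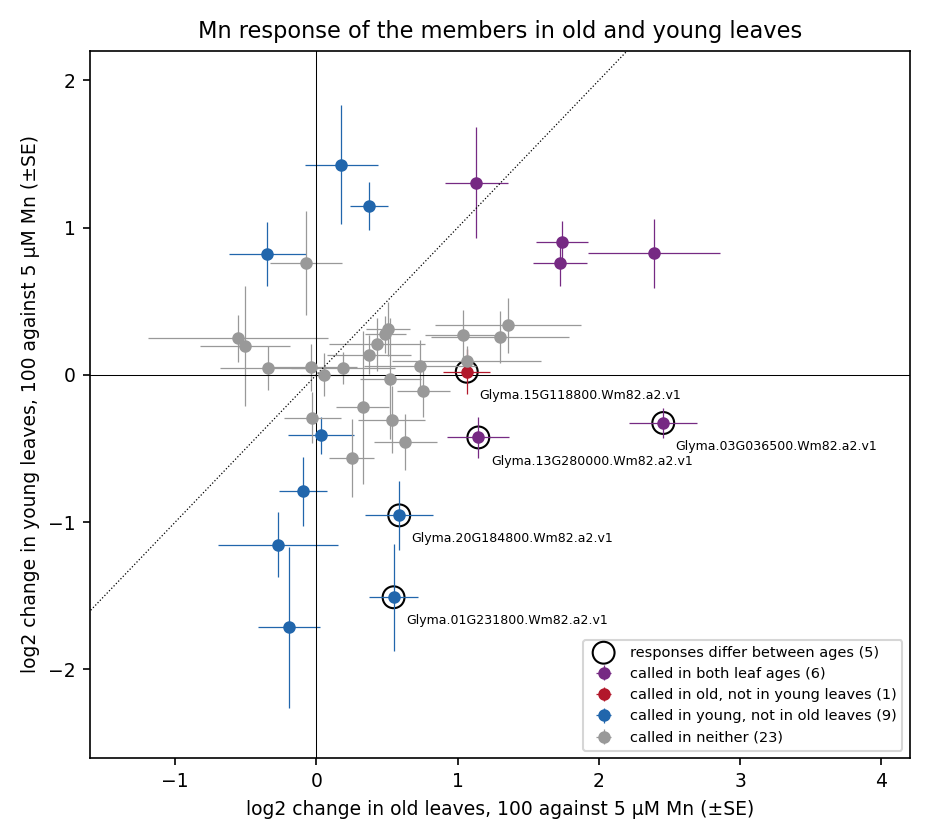
Log2 change at 100 against 5 µM Mn of each member in old leaves (x axis) and in young leaves (y axis), with SE bars from the fit of that leaf age; colours give the calls, open circles mark the 5 members whose responses differed and the dotted line marks equal changes. Of the 39 members 30 lie below the dotted line, and the 5 circled members all lie below it. The scale understates changes at low young-leaf levels, so a rise of equal fold in both leaf ages also lies below the line.

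Calls in the 2 leaf ages were then set side by side. Higher in both were 4 members, against 1.22% of all genes tested. Higher in old but lower in young ones were 2 members, against 0.0106%, that is 3 genes in all. Both stayed under an FPKM of 1 in every young-leaf library and passed the filter on low values through old leaves, where the rule sets their level. Their young-leaf calls held in 0 and 1 of 6 leave-one-out fits, and the share over all genes is not a like background for them. Higher in old leaves without a call in young leaves was 1 member, against 0.584%. Without a call in old leaves 3 members were higher in young leaves, against 38.6% of all genes, and 6 were lower, against 6.9%. In neither leaf age were 23 members called, against 50.8%. By sign alone 18 members had positive changes in both leaf ages, against 52.2% of all genes, and 11 were positive in old and negative in young leaves, against 9.13%. The reverse held for 6 members, against 23.2%, and 4 were negative in both, against 15.3%.

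The 4 members called higher in both leaf ages were Glyma.12G233600.Wm82.a2.v1, Glyma.12G233700.Wm82.a2.v1, Glyma.15G041100.Wm82.a2.v1 and Glyma.18G067500.Wm82.a2.v1. The first had 26, 26.7 and 35.2 in old leaves at 100 µM and 7.57, 9.81 and 6.89 at 5 µM, and in young leaves 0.775, 1.51 and 1.19 at 100 µM and 0.157, 0.135 and 0.135 at 5 µM. Its log2 changes were 1.74 in old leaves (SE 0.19, adjusted p = 0.0115 by limma) and 0.90 in young leaves (SE 0.14, adjusted p = 0.00318). By voom they were 1.85 in old and 2.88 in young leaves, so which leaf age had the larger rise depends on the scale. On the FPKM scale the young-leaf rise spans 32 to 66 fragments at 100 µM and 6 fragments in each library at 5 µM.

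Glyma.12G233700.Wm82.a2.v1, the next ID on chromosome 12, had 220, 277 and 259 in old leaves at 100 µM and 151, 102 and 95.2 at 5 µM. Its young-leaf values were 6.58, 21.5 and 12.3 at 100 µM and 3.64, 5.88 and 3.72 at 5 µM. The log2 changes were 1.13 in old leaves (SE 0.23, adjusted p = 0.0497) and 1.30 in young leaves (SE 0.37, adjusted p = 0.0256). The old-leaf call sits at the threshold, and without 1 of the libraries its adjusted p reached 0.21 in old and 0.079 in young leaves.

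Glyma.18G067500.Wm82.a2.v1 had 126, 113 and 145 in old leaves at 100 µM and 30.2, 44.8 and 40.3 at 5 µM, which gave a log2 change of 1.73 with an SE of 0.19 (adjusted p = 0.0127). In young leaves it had 4.01, 5.19 and 6.1 at 100 µM and 2.61, 2.18 and 2.95 at 5 µM, and its log2 change was 0.76 (SE 0.15, adjusted p = 0.00756). The young-leaf values of Glyma.15G041100.Wm82.a2.v1 were 2.48, 3.83 and 2.1 at 100 µM and 1.85, 0.719 and 0.917 at 5 µM, and the log2 change was 0.82 with an SE of 0.24 (adjusted p = 0.0255). After median-of-ratios rescaling the young-leaf adjusted p of these genes was 0.056 and 0.087, and that of Glyma.12G233700.Wm82.a2.v1 was 0.067. In none of the 4 genes did the Mn levels overlap in either leaf age.

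**Figure D4:**
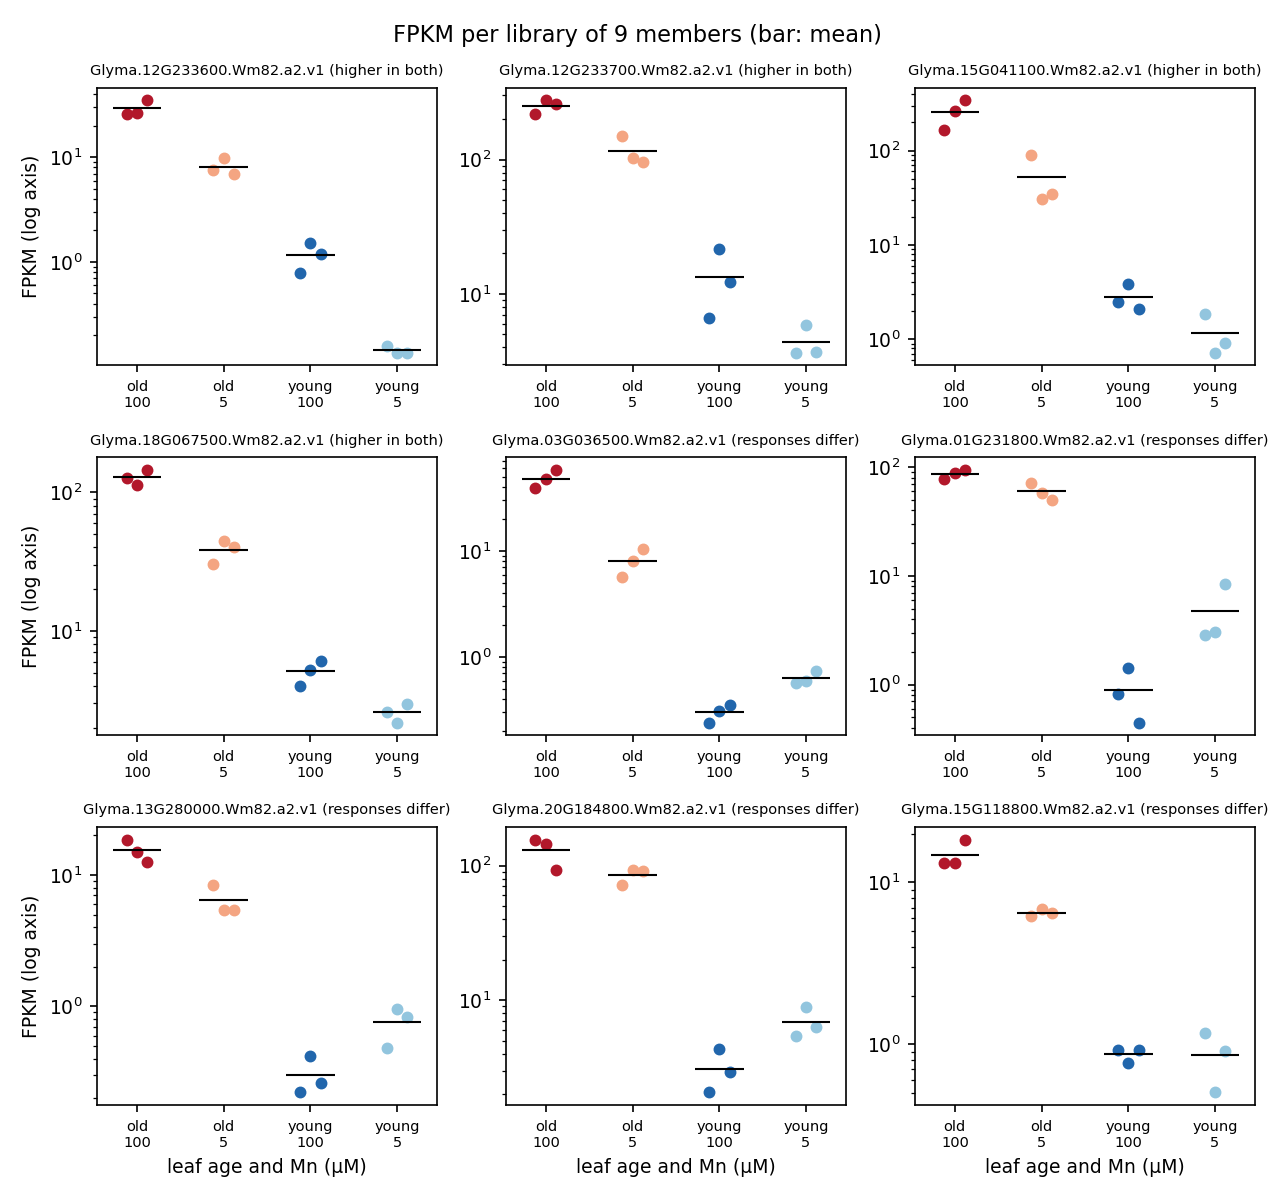
FPKM (log axis) in each library of the 4 members called higher with Mn in both leaf ages and of the 5 members whose responses differed between leaf ages; points are libraries and bars are means of 3. Glyma.03G036500.Wm82.a2.v1 reads 39 to 58.2 against 5.7 to 10.5 in old leaves and 0.241 to 0.351 against 0.568 to 0.735 in young leaves, each at 100 against 5 µM.

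Whether the Mn response differed between leaf ages was tested as an interaction over all 12 libraries, as the young-leaf minus the old-leaf log2 change. The response was called different for 5 members, all with the negative sign, that is with the higher change in old leaves. Over all genes tested 4.67% were called, 3.75% with a positive and 0.916% with a negative difference. At an unadjusted p below 0.05 the members numbered 3 positive and 15 negative, against 25.2% of all genes in either direction. Voom called 1 member positive, Glyma.16G219700.Wm82.a2.v1, and 3 negative, beside 690 positive and 133 negative of all genes. The median difference was -0.68 for members and 0.15 for all genes, and 9 of 39 members were above 0, against 65.2% of all genes. The rule picks genes with little young-leaf FPKM, and log2(FPKM + 1) understates changes at low levels. For such a gene a rise of equal fold in both leaf ages gives a negative difference. All genes were not picked that way, so the comparison with them is tilted by the rule. Voom adds no FPKM but part of a fragment to each count, so it also understates changes at very few fragments. By voom the median difference was -0.48 for members and 0.21 for all genes, and 13 of the 39 members were above 0. On the FPKM scale it was -0.24 for the 24 members with an old-leaf FPKM of at least 10 throughout. How much of the negative sign comes from the scale was not tested.

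The largest difference was -2.78 (SE 0.27, adjusted p = 0.00524 by limma) for Glyma.03G036500.Wm82.a2.v1, which also had the strongest old-leaf rise. Its young-leaf values were 0.241, 0.31 and 0.351 at 100 µM and 0.568, 0.594 and 0.735 at 5 µM, so that the Mn levels separated in the opposite direction to old leaves. They came from 11 to 17 fragments at 100 µM and 24 to 36 at 5 µM. The young-leaf fall of -0.33 (adjusted p = 0.0365) lost its call whichever of the 6 libraries was left out, at up to 0.11. It also did not pass when only genes averaging an FPKM of 5 or more were tested (0.228) or with all 12 libraries in 1 fit (0.184). The gene passed the filter on low values through its old-leaf levels, since no young-leaf library reached an FPKM of 1. The difference was called in all 12 leave-one-out fits.

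Glyma.13G280000.Wm82.a2.v1 was also called in both leaf ages with opposite signs. It had 18.6, 14.9 and 12.6 in old leaves at 100 µM and 8.46, 5.41 and 5.45 at 5 µM, which gave a log2 change of 1.15 with an SE of 0.22 (adjusted p = 0.0465). In young leaves it had 0.222, 0.418 and 0.261 at 100 µM and 0.479, 0.958 and 0.827 at 5 µM, and its log2 change was -0.42 (SE 0.14, adjusted p = 0.0408). The difference of -1.57 (SE 0.26, adjusted p = 0.0157) was also called in all 12 leave-one-out fits. Each single-age call was lost in 5 of 6 such fits, at up to 0.19 in old and 0.12 in young leaves. The young-leaf fall did not pass when only genes averaging an FPKM of 5 or more were tested (adjusted p = 0.153) or with all 12 libraries in 1 fit (0.0916). Like the gene before it, this one passed the filter through old leaves.

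For Glyma.01G231800.Wm82.a2.v1 the old-leaf values were 78.6, 88.9 and 94.4 at 100 µM and 71.8, 57.8 and 50.3 at 5 µM, with no overlap and a log2 change of 0.55 that did not pass (adjusted p = 0.134). With its young-leaf fall the difference was -2.06 (SE 0.44, adjusted p = 0.0283). Glyma.20G184800.Wm82.a2.v1 had 156, 145 and 92.4 in old leaves at 100 µM and 71.8, 92.6 and 91.9 at 5 µM, which overlapped (log2 change 0.59, adjusted p = 0.213). In young leaves it had 2.07, 4.33 and 2.92 at 100 µM and 5.45, 8.89 and 6.31 at 5 µM, and the log2 change was -0.95 with an SE of 0.23 (adjusted p = 0.0151), and its difference was -1.54 (SE 0.35, adjusted p = 0.0354).

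Glyma.15G118800.Wm82.a2.v1 was called in old leaves and not in young ones. It had 13.1, 13.1 and 18.4 in old leaves at 100 µM and 6.17, 6.83 and 6.51 at 5 µM, which gave a log2 change of 1.06 with an SE of 0.17 (adjusted p = 0.0304). Its young-leaf values of 0.92, 0.765 and 0.918 at 100 µM and 1.17, 0.505 and 0.907 at 5 µM overlapped, and their log2 change was 0.02 (SE 0.15, adjusted p = 0.914). The difference was -1.04 (SE 0.22, adjusted p = 0.0288), but its adjusted p was 0.2 by voom and 0.0915 with a pseudocount of 0.1.

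The count of 5 differences moved with single libraries. The calls over all genes, 1320 with every library, moved in the same direction in these fits. For old leaves at 100 µM, leaving out replicate 2 gave 2 members and 290 genes, and leaving out replicate 3 gave 3 members and 291 genes. For old leaves at 5 µM, leaving out replicate 1 gave 8 members and 2516 genes, and leaving out replicate 2 gave 8 members and 3232 genes. For young leaves, leaving out replicate 3 at 100 µM gave 2 members and 194 genes. There, leaving out replicate 1 at 5 µM gave 3 members and 300 genes, and leaving out replicate 3 gave 3 members and 210 genes. Median-of-ratios rescaling kept all 5 and called 7 members, all negative, beside 950 positive and 586 negative differences over all genes, against 1061 and 259 as deposited.

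**Figure D5:**
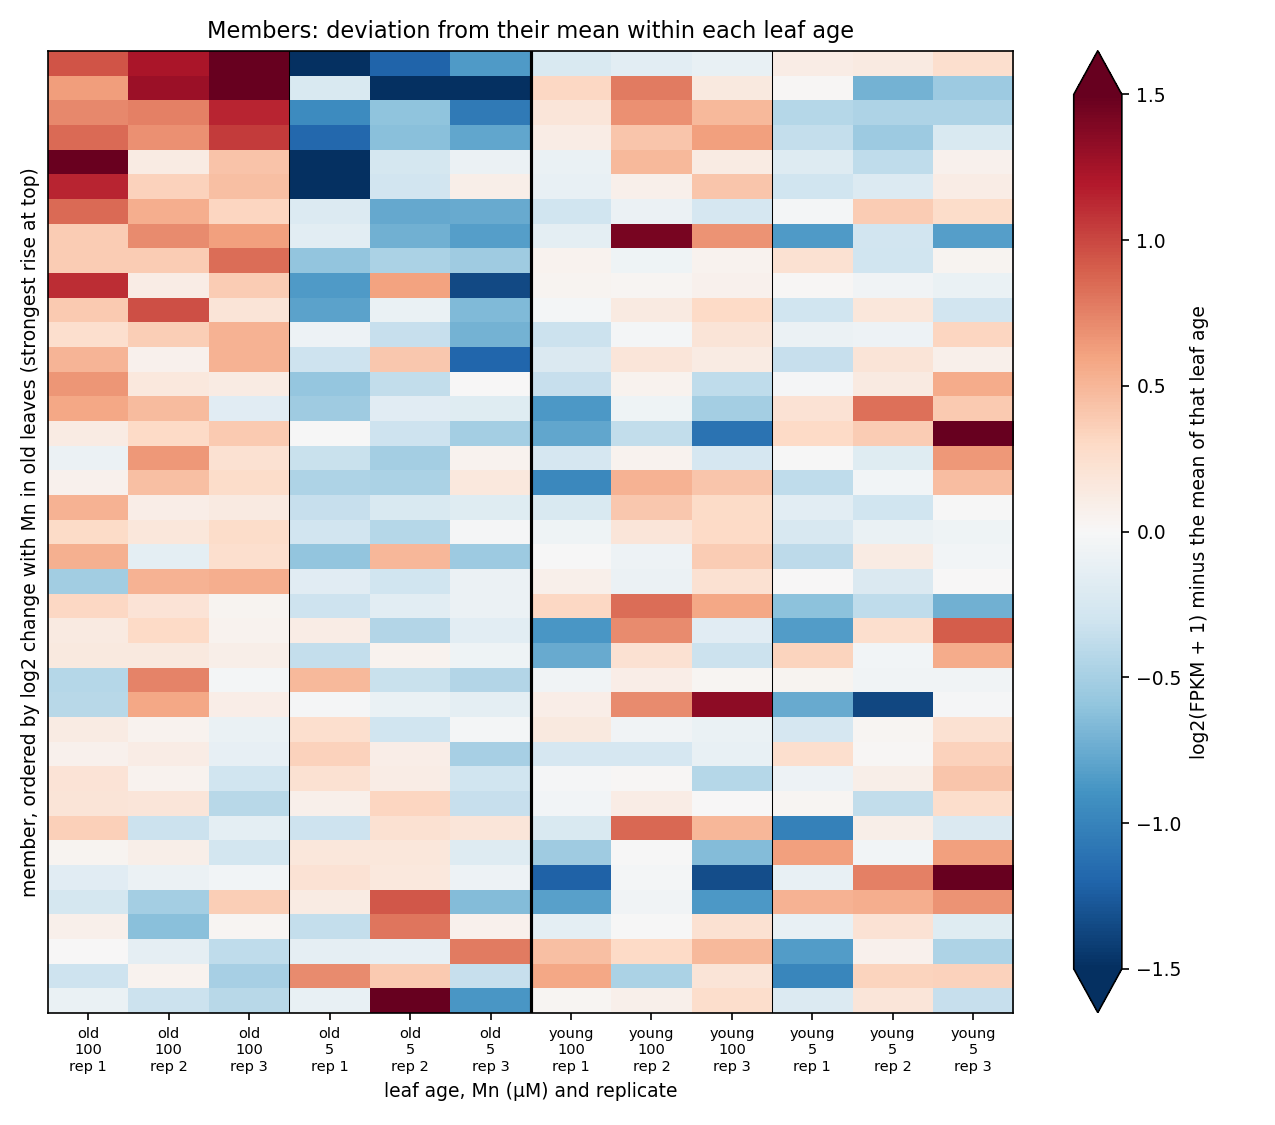
Deviation of log2(FPKM + 1) from the member's own mean within a leaf age (colour, capped at both ends of the scale) for the 39 members (rows, ordered by log2 change with Mn in old leaves) in the 12 libraries (columns). The uppermost rows are red in the old-leaf 100 µM libraries and blue in the 5 µM ones, while the young-leaf columns of the same rows mix rises and falls, and the lowest row stands out in 1 library, replicate 2 of old leaves at 5 µM.

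Most old-leaf maxima of the members fell at high Mn, where 61.3% of all genes tested also had a change above 0. The counts that follow were made for members only, not over all genes. Replicates 1, 2 and 3 at 100 µM were the highest old-leaf library for 11, 8 and 9 members, and replicates 1, 2 and 3 at 5 µM for 5, 5 and 1. The lowest value was in replicates 1, 2 and 3 at 100 µM for 3, 2 and 4 members and in those at 5 µM for 12, 7 and 11. In young leaves replicate 3 at 5 µM was the highest library for 14 members, more than any other library there.

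Members had gene lengths of 444 to 3431 bases as implied by the FPKM values, with a median of 1409, against a median of 1784 for the 12152 genes that met the level condition and 1873 for all genes tested. In soybean IDs the digits before the G give the chromosome. Members lay on 19 of 20 chromosomes, with at most 4 on a chromosome.

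On chromosomes 4 and 12, 2 members carried consecutive IDs. Those on chromosome 12 are described above. On chromosome 4 Glyma.04G190700.Wm82.a2.v1 had 16.4, 13.9 and 13 in old leaves at 100 µM and 16.2, 64.6 and 9.17 at 5 µM, where 1 library stood far above the rest. Glyma.04G190800.Wm82.a2.v1, the next ID, had 265, 166 and 188 at 100 µM and 167, 244 and 236 at 5 µM. The high library of Glyma.04G190700.Wm82.a2.v1, replicate 2 at 5 µM, was also the highest of its group for Glyma.04G190800.Wm82.a2.v1, but there it lay close to replicate 3. The highest old-leaf value of Glyma.04G190800.Wm82.a2.v1 was in replicate 1 at 100 µM.

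Of the listed IDs directly before or after a member, 50 were tested and were not members themselves. In 11 of these, or 22%, all 6 old-leaf values lay above all 6 young-leaf values, against 9.42% of all genes tested. As the counting rule is not given in the sources used here, fragments shared with an overlapping or near-identical neighbour cannot be told apart from its own.

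A pair on different chromosomes had nearly equal levels. Glyma.01G225500.Wm82.a2.v1 had 86.6, 33.3 and 41.4 in old leaves at 100 µM and 8.8, 25.3 and 28.6 at 5 µM. Glyma.11G017500.Wm82.a2.v1 had 72.7, 41.5 and 44.7 at 100 µM and 8.95, 26.3 and 34.3 at 5 µM. Both were highest in replicate 1 at 100 µM and lowest in replicate 1 at 5 µM, and their log2 changes of 1.35 and 1.30 in old leaves did not pass (adjusted p = 0.188 and 0.183 by limma). This pair, the consecutive IDs, the members called in both leaf ages and those whose responses differed were named after their values were seen.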

How the data were processed

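Gene expression was measured by RNA-seq in 12 soybean leaf libraries, 3 in each of 4 groups. The authors deposited 1 table of FPKM values for 39811 gene IDs, and the FPKM values were used as deposited. The submitters' processing notes name Bowtie2 2.2.3, HISAT2 2.1.0 and DESeq2 1.6.3, without a role, while the counting rule and strand setting were not given in the sources used here. In each library the FPKM values were whole multiples of the value of 1 fragment (within 0.02 of a whole number for 39811 of 39811 genes), from which fragments, gene lengths and library totals were recovered.

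Genes that reached an FPKM of 1 in 3 or more of the 12 libraries were tested with limma 3.58.1 (variance trend, R 4.3.3) on log2(FPKM + 1), 2-sided, with Benjamini-Hochberg adjustment over the 28267 genes and a threshold of 0.05. A log2 change on this scale understates the change of low genes. Each leaf age was fitted on its own 6 libraries, because members differ at least 4-fold in level between the ages, and the difference between responses was fitted on all 12. A permutation test of a single gene with 3 against 3 libraries cannot go below p = 0.1. The procedure was tested on simulated data. Alternatives were other pseudocounts, filters, scalings and member rules, a replicate term, voom on the recovered fragments, all libraries in 1 fit, and leaving out each library.

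Members, lists and tests were chosen with earlier results of these data known. The rule for named members took those with the highest old-leaf level, the widest gap between leaf ages, the strongest called changes without overlap, the called differences and the nearest values to the limit, at most 2 IDs per direction. Gene lists and markers chosen by product name could not be used, because 0 of the 39811 IDs matched the reference table.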

Additional observations from a re-analysis of the deposited data

Results flagged for a closer look

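For 5 members the Mn response differed between leaf ages by the interaction test of limma over all 12 libraries. The values are the young-leaf minus the old-leaf log2 change, with adjusted p in the fit reported above and its range over the alternatives. The difference was -2.78 for Glyma.03G036500.Wm82.a2.v1 (adjusted p = 0.00524, range 0.0021 to 0.03) and -1.57 for Glyma.13G280000.Wm82.a2.v1 (0.0157, range 0.0063 to 0.049). It was -2.06 for Glyma.01G231800.Wm82.a2.v1 (0.0283, range 0.017 to 0.077), -1.54 for Glyma.20G184800.Wm82.a2.v1 (0.0354, range 0.013 to 0.091) and -1.04 for Glyma.15G118800.Wm82.a2.v1 (0.0288, range 0.014 to 0.2). When each of the 12 libraries was left out in turn, the first 2 were called in 12 of 12 fits, and the others in 8, 5 and 6. Groups of 3 libraries are too small for a check of single outlying libraries.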

How the results depend on the processing

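Among members, the 7 calls in old leaves became 3 without the filter, 4 after median-of-ratios rescaling, 12 with all 12 libraries in 1 fit, 0 among the 16 members of an 8-fold rule and 3 among the 24 members with a minimum FPKM of 10. They were 0 to 7 with each library left out. Over all genes the 1038 old-leaf calls became 227 without the filter, 4551 with all 12 libraries in 1 fit, 2563 without replicate 3 at 5 µM and 46 and 44 without replicates 2 and 3 at 100 µM. The 15 young-leaf calls became 4 under the 8-fold rule and 7 to 12 with a library left out. The 5 differences became 9 with a pseudocount of 5 (1416 of all genes, against 1320) and 10 after quantile normalization (2037 of all genes, 1091 positive and 946 negative). They became 1 under the 8-fold rule, 2 with the minimum of 10 and 2 to 8 with a library left out. The median log2 change in young leaves (0.05) was -0.14 after median-of-ratios rescaling and -0.21 after quantile normalization, and 0.05 to 0.14 with a library left out, against 0.41 to 0.47 in old leaves (0.49 with all).

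Under the 8-fold rule the share of summed FPKM was 0.275% in old leaves at 100 µM and 0.266% at 5 µM, while young leaves had 0.00445% at 100 µM and 0.00535% at 5 µM. With a library left out the old-leaf shares were 0.724 to 0.76% at 100 µM and 0.608 to 0.699% at 5 µM, and the young-leaf shares 0.0454 to 0.0494% at 100 µM and 0.04 to 0.048% at 5 µM. The change of Glyma.06G177600.Wm82.a2.v1 in old leaves turned to 0.17 without replicate 3 at 100 µM and to 0.12 without replicate 2 at 5 µM. None of the 27 called member values changed sign in any of their 430 alternative values. Many of these alternatives could not change it. Other filters, the replicate block and the joint fit leave the log2 change as it was. Leaving out 1 library cannot reverse a change within a leaf age where the Mn levels do not overlap. The cause of these changes was not tested.

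The replicate block left 0 old-leaf calls among members (1 of all genes), 14 young-leaf calls (12381 of all genes) and 4 differences (766 of all genes). Libraries of the same number did not consistently deviate together, with correlations across genes of -0.47, -0.2 and -0.118 in old leaves and 0.149, 0.0137 and -0.0928 in young leaves. In old leaves no 100 µM library correlated best with the 5 µM library of its own number. In young leaves only replicate 1 did. The labels do not say what the numbers mark, and these correlations cannot show whether libraries of the same number shared plants or a batch.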
